A study of Mus musculus with 2 samples.

Results

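Lymphoid priming genes are transcripts of the B and T cell lineages that multipotent progenitors already carry before they commit. The set examined here held 10 genes, chosen by name: Ikzf1, Tcf3, Bcl11a, Satb1, Rag1, Rag2, Dntt, Il7r, Ccr9 and Lsp1. All 10 were found among the 39017 gene identifiers of the count table, and all 10 had at least 20 counts summed over both libraries, the minimum for a ratio, which 13880 genes reached. The RNA came from bone marrow LSK (Lin- Sca-1+ c-Kit+) cells, the fraction that holds blood stem cells and multipotent progenitors. The miR-146a-/- library came from 1 pool of 6 mice and the WT library from 1 pool of 12 mice. All mice were C57BL/6J and 10 to 14 weeks old, and the miR-146a-/- mice lack miR-146a, a microRNA that dampens NF-kB signalling. Because each genotype had 1 library, no difference has a replicate check, no p-value is given, and every statement compares these libraries.

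Within the LSK fraction, lymphoid priming marks the progenitors that express the cytokine receptor Flt3 most strongly. The transcription factors Ikaros, E2A, BCL11A and SATB1 open the lymphoid programme. RAG1, RAG2 and terminal transferase then assemble and diversify antigen receptor genes, while the interleukin 7 receptor and CCR9 carry survival and homing signals to early B and T cell progenitors.

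miR-146a acts by pairing its seed with matching sites in messenger RNA, so its sequence and the closest matches in the set are shown here. The mature sequence is from RefSeq (GRCm38.p6), with the seed, bases 2 to 8, in capitals.
mmu-miR-146a-5p: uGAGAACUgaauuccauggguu
The 7-base match to that seed, AGTTCTC, occurred in 0 of the 10 genes when the longest 3' untranslated region of each was searched, over 23484 bases in all, and in 11.1% of 21037 protein-coding genes. The 6-base match to bases 2 to 7 occurred in 2 of the 10 genes, Bcl11a and Ccr9, and in 29.7% of protein-coding genes. Both sites are exonic, on the plus strand of mm10, and are shown with the match in capitals.
Bcl11a, chr11:24165419-24165424: taaattctttatGTTCTCaccgtttgaa
Ccr9, chr9:123781239-123781244: cacttgctgcagGTTCTCccatctcttt
The Bcl11a match is followed by an A, a form found in 12.4% of protein-coding genes, and the Ccr9 match is not. A match describes the letters and does not show that a site is used.

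Ikaros and E2A are members of the set as well as regulators of lymphoid genes, so their core motifs were sought, on both strands, in the promoter windows of the set, their own included. RefSeq windows (GRCm38.p6) of 250 bases before to 50 after a start were held for 9 of the 10 genes. The Ikaros core TGGGAA was found for 3 of the 9 (Rag1, Bcl11a and Satb1), against 28.3% of 27025 genes. The E2A E-box CAGGTG was also found for 3 of the 9 (Rag1, Ccr9 and Satb1), against 22.6%. Rag1 and Satb1 each held both motifs within a single window. Rag1 is the recombinase gene of the set, and the stretch around each motif in its window, chr2:101649483-101649782 on the minus strand, is shown with the motif in capitals.
Rag1, E2A E-box: ttcctgaagagcCAGGTGccagctggagct
Rag1, Ikaros core: ggtgtgggagagTGGGAAgggcagtgagag
These shares are counts over few genes and describe sequence alone.

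Total counts were 22231389 in the miR-146a-/- library and 35069136 in the WT library, of which protein-coding genes held 51.5% and 81.4%. A non-coding feature with ribosomal RNA sequence, Gm42418, held 27.2% of miR-146a-/- counts and 2.13% of WT counts. Levels below are therefore CPM on the effective library size from TMM scaling (normalised CPM), which sets the median log2 ratio of all 13880 measured genes at -0.01. Scaled by total counts, that median was -0.83 and all 10 lymphoid priming genes had a ratio below 0. Mir146 had 0 counts in both libraries, so it gave no check of the genotype labels. LSK identity showed in Kit (728 and 558 normalised CPM in miR-146a-/- and WT) and Ly6a, which encodes Sca-1 (74.6 and 66.8). Of the 6 LSK markers listed 0 were called, with 4 log2 ratios above 0 and 2 below. They ran from -0.52 for Cd48 (-0.67 to -0.37) to 0.66 for Slamf1 (0.23 to 1.09), so the make-up of the LSK fractions may differ, which was not tested. The libraries also differed in ways that go with genotype in every comparison below: all 20 listed immediate early genes were higher in miR-146a-/-, with a median log2 ratio of 2.06, the X-linked Xist was higher (3.64), and the 4 Y-linked genes were lower (-2.75 to -2.33). Their part in the results below was not tested.

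None of the 10 lymphoid priming genes differed between the libraries by the rule used for calls, a 95% counting interval wholly beyond 1.5-fold. Over all measured genes 6.87% were called, 5.35% higher and 1.53% lower in miR-146a-/-. The median log2 ratio of the 10 genes was -0.02, beside -0.01 for all measured genes, with 5 ratios above 0 and 5 below. The genes ranged from -0.91 for the homing receptor Ccr9 to 0.51 for the cytoskeletal gene Lsp1. Their summed level was 1567 normalised CPM in miR-146a-/- and 1409 in WT, a log2 ratio of 0.15 (0.13 to 0.17). As a share of protein-coding counts the sum was 0.229% in miR-146a-/- and 0.230% in WT. The counting interval excluded a ratio of 1 for 8 of the 10 genes, 4 above and 4 below, where 57.1% of all measured genes did so. The spread of ratios across genes can be set beside this: among the 10365 protein-coding genes that had 200 counts or more, log2 ratios had an SD of 0.43. That SD holds every difference between these libraries, genotype included, and does not measure the spread between replicates. Of the 8 lymphoid priming genes with at least 200 counts, 6 lay within 1 SD of a ratio of 1, and Ccr9 and Lsp1 lay beyond it. The same share over all such genes was not computed, so this only places the members. In bulk RNA, fewer cells that carry a transcript and less of it per cell cannot be told apart.

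**Figure D1:**
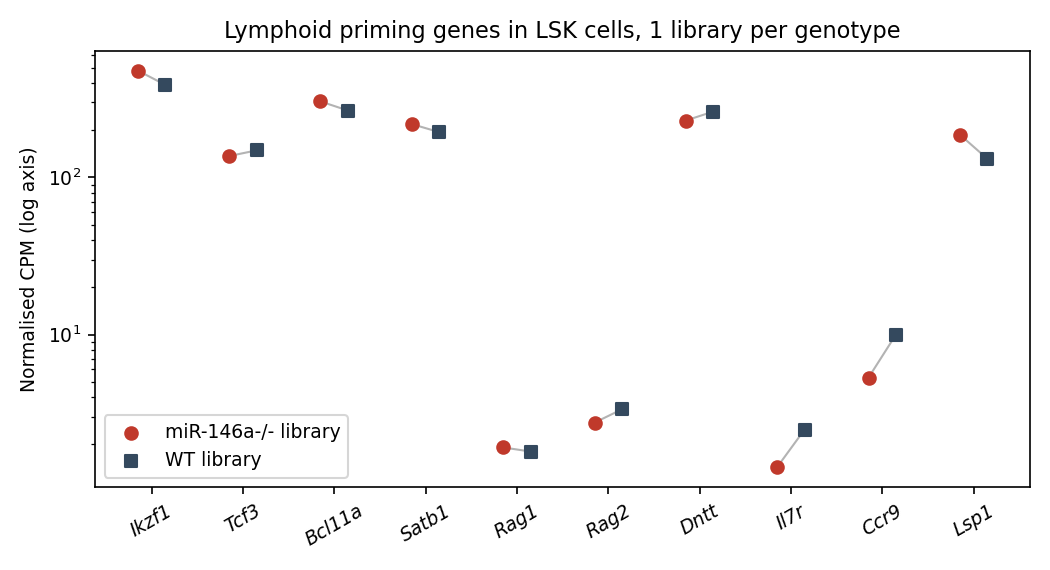
Normalised CPM (log axis) of each lymphoid priming gene in the miR-146a-/- library (circles, left) and the WT library (squares, right), 1 library per genotype. The 6 genes from Ikzf1 to Lsp1 with high levels lie between 131 and 479, while Rag1, Rag2, Il7r and Ccr9 lie between 1.44 and 10.0.

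By count, the 4 transcription factors held most of the reads of the 10 genes. They had 19039 of 26211 counts in miR-146a-/- and 46514 of 65700 in WT. Counts are not corrected for exon length, and levels per kilobase are given below. Ikzf1 (ENSMUSG00000018654, chromosome 11 from 11685003 to 11772926) encodes Ikaros, a zinc-finger factor needed for normal lymphoid development. It had 8005 counts in miR-146a-/- and 18105 in WT, or 479 and 388 normalised CPM, a log2 ratio of 0.30 (0.26 to 0.34). Ikzf1 was the most abundant of the 10 genes by count in both libraries, and 75.0% of measured genes had a lower ratio. Among the 5 genes of the Ikaros family it held 78.9% of counts in miR-146a-/- (95% Clopper-Pearson interval 78.1 to 79.7%) and 79.8% in WT (79.3 to 80.3%), intervals that overlap. Its relative Ikzf2, which encodes Helios, had 1672 and 3244 counts (0.52), while Ikzf3, which encodes Aiolos of more mature lymphocytes, had 3 and 10 counts. The Ikzf2, Ikzf3 and family values were chosen after they were seen.

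Bcl11a (ENSMUSG00000000861, chromosome 11 from 24078056 to 24174123) encodes a repressor needed for B cell development. It had 5092 counts in miR-146a-/- and 12428 in WT, or 304 and 267 normalised CPM, at 0.19 (0.14 to 0.24). Its paralog Bcl11b, the T lineage commitment factor, had 0 and 2 counts, so the family was Bcl11a alone in both libraries; Bcl11b was chosen after its values were seen. Satb1 (ENSMUSG00000023927, chromosome 17 from 51736187 to 51833290), a chromatin organiser that promotes lymphoid fate in stem cells, had 3654 and 9051 counts, or 218 and 194 normalised CPM, at 0.17 (0.11 to 0.23). Bcl11a and Satb1 have the longest exon sets of the 10 genes, and protein-coding genes in the same decile of exon length had a median of 0.17. The length trend used for adjustment was not this decile median. It was taken from a running window of genes ordered by exon length, so its offset differed between genes of the same decile. After that trend was subtracted, Bcl11a was at 0.01 (-0.04 to 0.06) and Satb1 turned to -0.09 (-0.14 to -0.03). Before adjustment Satb1 stood at the decile median of 0.17, so its change of sign rests on the running window.

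Tcf3 (ENSMUSG00000020167, chromosome 10 from 80409514 to 80433647) encodes E2A, the E protein that starts the B cell programme and activates the Rag genes. It had 2288 counts in miR-146a-/- and 6930 in WT, or 137 and 149 normalised CPM, at -0.12 (-0.19 to -0.05). With the length trend subtracted it was at -0.04 (-0.11 to 0.03), an interval that includes a ratio of 1. The related E proteins Tcf4 and Tcf12 were at 0.49 and 0.20, so that Tcf3 made up 30.9% of E protein counts in miR-146a-/- (29.8 to 32.0%) and 38.4% in WT (37.7 to 39.1%). These intervals do not overlap, and the share does not depend on scaling. It was not adjusted for the length trend, so a part of that trend in the share cannot be told apart. Id proteins, which bind E proteins and block them, had 240 counts in miR-146a-/- and 322 in WT summed over Id1, Id2 and Id3, or 14.4 and 6.91 normalised CPM, at 1.05 (0.81 to 1.30). Id1 (102 and 79 counts, 1.84) and Id3 (68 and 86 counts, 1.13) were called higher and Id2 (0.31) was not. E proteins summed to 443 and 387 normalised CPM. These family sums were chosen after the values were seen.

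The recombination genes split widely in level. Dntt (ENSMUSG00000025014, chromosome 19 from 41029275 to 41059525) encodes terminal transferase, which adds bases at the joints of antigen receptor segments. It had 3851 counts in miR-146a-/- and 12237 in WT, or 230 and 262 normalised CPM, at -0.19 (-0.24 to -0.14), and at -0.12 (-0.17 to -0.06) with the length trend subtracted. Per kilobase of exon it was the most abundant of the 10 genes in both libraries, at 100.5 and 115 RPKM (normalised CPM per kilobase). Rag1 (ENSMUSG00000061311, chromosome 2 from 101638282 to 101649501), the catalytic subunit of the recombinase, had 32 and 84 counts, or 1.91 and 1.80 normalised CPM, at 0.09 (-0.55 to 0.69). Its cofactor Rag2 (ENSMUSG00000032864, chromosome 2 from 101624718 to 101632529) had 46 and 156 counts, or 2.75 and 3.35 normalised CPM, at -0.28 (-0.79 to 0.20). Both intervals include a ratio of 1, so at this depth a change of Rag1 or Rag2 within these bounds was not detectable.

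Rag1 and Rag2 are neighbours in opposite orientation, and their counts could be compared within each library. There were 0.696 Rag1 counts per Rag2 count in miR-146a-/- (0.429 to 1.12) and 0.538 in WT (0.408 to 0.706), intervals that overlap. Dntt outnumbered Rag1 by 120 counts to 1 in miR-146a-/- (85.1 to 176) and 146 to 1 in WT (118 to 183). Another gene of the locus, B230118H07Rik, shares 208 exonic bases with Rag2 on the opposite strand and 80 with Rag1 on the same strand. It had 143 and 538 counts, more than either Rag gene, and whether counting used strand is not given in the sources used here. Both Rag counts are uncertain to that extent.

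The surface receptors had the lowest ratios. Ccr9 (ENSMUSG00000029530, chromosome 9 from 123678439 to 123784330) encodes the chemokine receptor that guides progenitors to the thymus. It had 89 counts in miR-146a-/- and 466 in WT, or 5.32 and 10.0 normalised CPM, at -0.91 (-1.25 to -0.58). The upper bound of -0.580 stood just short of -0.585, the log2 threshold for a call. With no filter on low counts it was called lower (-0.97, -1.32 to -0.65), and likewise after the length trend was subtracted (-0.98, -1.33 to -0.65). Of all measured genes 2.45% had a lower ratio, and of the 4233 genes with 100 to 1000 summed counts 2.69% did.

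Il7r (ENSMUSG00000003882, chromosome 15 from 9505788 to 9530176) encodes the alpha chain of the interleukin 7 receptor, which marks common lymphoid progenitors. It had 24 counts in miR-146a-/- and 116 in WT, or 1.44 and 2.49 normalised CPM, at -0.79 (-1.49 to -0.15). Its interval excludes a ratio of 1 but spans the threshold, and 4.61% of genes with 100 to 1000 summed counts had a lower ratio. Summed, both receptors had 113 and 582 counts, at -0.88 (-1.19 to -0.59). The number of Ccr9 counts per Il7r count was 3.71 in miR-146a-/- (2.34 to 6.09) and 4.02 in WT (3.27 to 4.97), so their proportion overlapped between the libraries.

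Lsp1 (ENSMUSG00000018819, chromosome 7 from 142460809 to 142494867) encodes an actin-binding protein of leukocytes. It had 3130 counts in miR-146a-/- and 6127 in WT, or 187 and 131 normalised CPM, at 0.51 (0.45 to 0.57). This was the highest ratio of the 10 genes and 84.9% of measured genes had a lower one. The upper bound lay just below the threshold of 0.585.

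**Figure D2:**
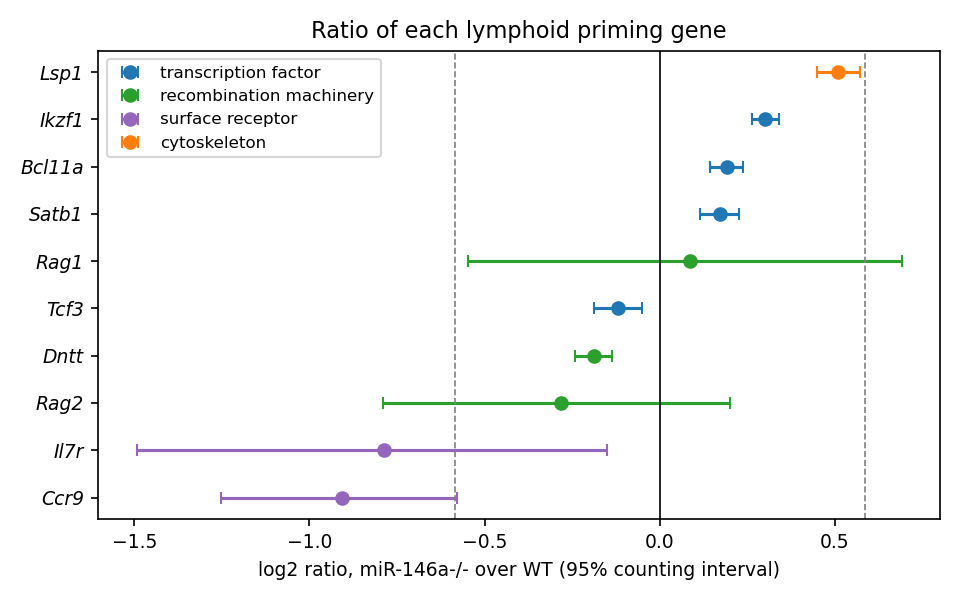
Log2 ratio of miR-146a-/- over WT for each gene, with its 95% counting interval and coloured by role; dashed lines mark 1.5-fold. The surface receptors Il7r (-0.79) and Ccr9 (-0.91) lie at the low end and Lsp1 (0.51) at the high end, and no interval lies wholly outside the dashed lines.

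Levels per kilobase of exon placed the genes in tiers. In miR-146a-/- Dntt (100.5 RPKM, 95% Poisson interval 97.3 to 104) and Ikzf1 (82.9, 81.0 to 84.7) led, followed by Lsp1 (36.2, 34.9 to 37.5), Tcf3 (33.9, 32.5 to 35.3), Bcl11a (23.1) and Satb1 (11.5). In WT the order was Dntt (115), Ikzf1 (67.2), Tcf3 (36.8), Lsp1 (25.4), Bcl11a (20.2) and Satb1 (10.2), with Tcf3 above Lsp1. The low tier was Rag2 (0.803, 0.588 to 1.07), Ccr9 (0.519, 0.417 to 0.638), Il7r (0.308, 0.197 to 0.458) and Rag1 (0.290, 0.198 to 0.409) in miR-146a-/-. In WT it was Rag2 (0.977, 0.830 to 1.14), Ccr9 (0.974, 0.888 to 1.07), Il7r (0.534, 0.441 to 0.640) and Rag1 (0.273, 0.218 to 0.338). Neighbours with overlapping intervals were Lsp1 and Tcf3, Rag2 and Ccr9, Ccr9 and Il7r, and Il7r and Rag1 in miR-146a-/-, and Rag2 and Ccr9 in WT. These levels divide by all annotated exons of a gene. The order depends on that choice. Divided by the longest protein-coding transcript, Lsp1 had 98.0 and 68.8 RPKM, above Tcf3 (46.4 and 50.4) in both libraries, above Ikzf1 (92.7) in miR-146a-/- and below it (75.2) in WT. On that scale Ccr9 (1.02 and 1.92) also stood above Rag2 (0.803 and 0.977) in both libraries. No intervals are given on that scale, so these orders are of point values. In miR-146a-/- the order of Lsp1 and Ikzf1, and that of Ccr9 and Rag2, may not exceed counting error. Dntt was the highest by either length.

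The share of each gene among the counts of the 10 does not depend on how the libraries were scaled. Ikzf1 held 30.5% in miR-146a-/- (29.98 to 31.1%) and 27.6% in WT (27.2 to 27.9%). Lsp1 held 11.9% (11.6 to 12.3%) and 9.33% (9.10 to 9.55%). Dntt held 14.7% in miR-146a-/- (14.3 to 15.1%) and 18.6% in WT (18.3 to 18.9%), and Tcf3 held 8.73% (8.39 to 9.08%) and 10.5% (10.3 to 10.8%). The receptors were small parts of the sum, Ccr9 at 0.340% in miR-146a-/- (0.273 to 0.418%) and 0.709% in WT (0.647 to 0.776%), and Il7r at 0.0916% (0.0587 to 0.136%) and 0.177% (0.146 to 0.212%). For these 6 genes the intervals of the libraries did not overlap. They overlapped for Bcl11a (19.4 and 18.9%), Satb1 (13.9 and 13.8%), Rag1 (0.122 and 0.128%) and Rag2 (0.175 and 0.237%). The intervals cover counting error only, and the shares were not adjusted for the length trend.

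**Figure D3:**
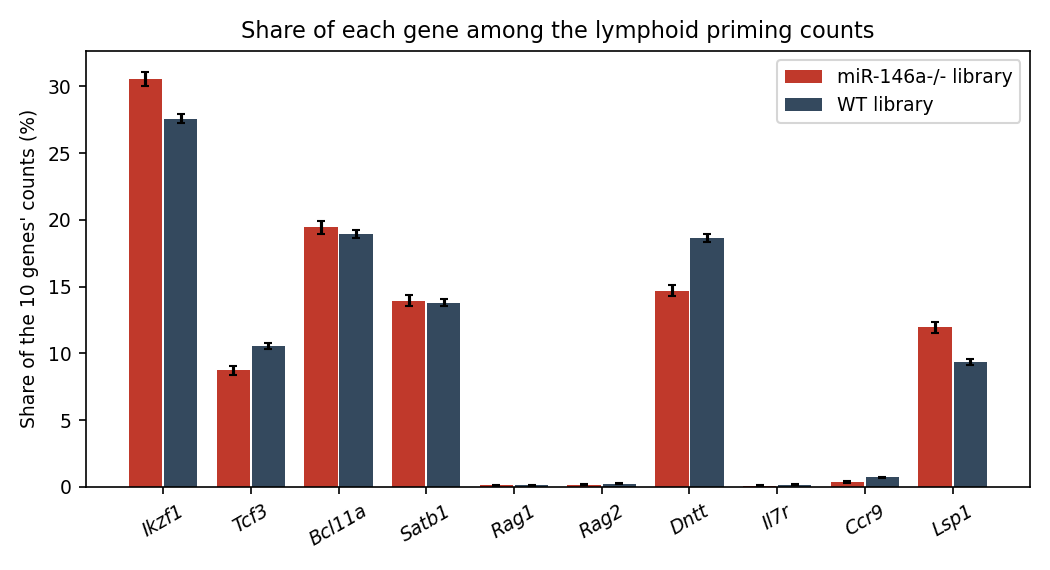
Share (%) of each gene in the summed counts of the 10 lymphoid priming genes, miR-146a-/- library left of the WT library, with 95% Clopper-Pearson intervals. Ikzf1 (30.5 and 27.6%) and Lsp1 have the larger share in miR-146a-/-, and Dntt (14.7 and 18.6%) and Tcf3 in WT.

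Other genes of the lymphoid pathway were examined by list. Of 31 lymphoid transcription factors beyond the set, 28 were measured, of which 2 (Id1 and Id3) were higher, 0 lower and 26 neither. Their median log2 ratio was 0.36, beside -0.01 for all measured genes, and 22 ratios were above 0, where 48.8% of all measured genes were. Myb, the progenitor factor that was the most abundant of them (461 and 438 normalised CPM), was at 0.08, and Lef1, a partner of beta-catenin in early lymphocytes, had 3 and 20 counts (-1.19, -3.65 to 0.50).

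Genes that work with or downstream of the interleukin 7 receptor were mostly at ratios above 0. Their median was 0.13 over 15 measured genes, of which 2 were called higher, 0 lower and 13 neither. The kinase gene Pim1 (481 and 280 normalised CPM, 0.78, 0.74 to 0.82) was the highest and the most abundant, and Mcl1 (0.65), a survival gene, was the other called higher; Mcl1 was chosen after its values were seen. Socs2, a feedback inhibitor of STAT5 signalling, had the lowest ratio at -0.93 (68 and 362 counts, -1.33 to -0.56).

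The proteins that join broken ends after RAG cleavage are made in all cells. Of 17 measured genes of V(D)J recombination and end joining, 0 were called in either direction, 12 ratios were below 0 and the median was -0.17. The DNA-bending protein Hmgb2 (212 and 198 normalised CPM) was at 0.10. Polm, a polymerase related to terminal transferase, was at 0.32 (18 and 40 counts).

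Surface and product genes of lymphoid progenitors had a median of 0.11 over 18 measured genes, with 1 higher, 0 lower and 17 neither. Flt3, the receptor that defines lymphoid-primed progenitors, had 399 and 467 (-0.23, -0.27 to -0.19). Ly6d, which marks progenitors bound for the B lineage, had 3 and 18 counts (-1.04, -3.51 to 0.67).

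Many transcripts of committed lymphocytes were under the minimum for a ratio. Of 17 B lineage genes 7 were measured and 0 called, with a median of 0.06. Syk, a kinase that progenitors also express, was the most abundant (243 and 233 normalised CPM, 0.06). The adaptor Blnk was at 0.49 (98 and 194 counts) and the kinase Blk at -0.63 (5 and 22 counts). Ebf1 had 1 and 4 counts, Pax5 1 and 0, and Ms4a1 0 and 1. Cd79b, which encodes a chain of the B cell receptor complex, was more abundant, at 263 and 757 counts (15.7 and 16.2 normalised CPM, -0.05). These 4 genes were chosen after their values were seen. Of 16 T lineage genes 7 were measured, with 2 higher (Cd247 and, at 1.13, Cd4), 0 lower and a median of 0.16. Cd3d, Cd3e, Cd3g and Cd8a had 0 counts in both libraries. Cd247, which encodes the zeta chain, was at 1.52 (58 and 56 counts), the adaptor gene Lat at 0.04 (528 and 1428 counts) and the kinase gene Lck at -0.57 (255 and 1054 counts). Of 12 NK and innate lymphoid genes 8 were measured, with 2 higher, 0 lower and a median of 0.86; Gzmb (13 and 9 counts), at 1.93, and Rora, at 0.87, were the genes called, and the abundant Nkg7 was at -0.12.

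Markers of other cells had mixed ratios, and of the lists in this paragraph only the neutrophil list had a median below 0. The neutrophil list, of which 7 of 10 genes were measured, had 3 lower, 0 higher and a median of -1.24, with a summed level of 6.58 normalised CPM in miR-146a-/- and 14.6 in WT. In it Ltf had 6 and 121 counts (-2.80), Ngp 29 and 211 (-1.38), S100a9 23 and 152 (-1.24), and S100a8 19 and 43 (0.30). In the plasma cell list 1 of 5 measured genes, Jchain, was lower (-1.35), with Irf4 at 0.95, the abundant Xbp1 at 0.10 and a median of 0.26, and a summed level of 116 and 106. The erythroid list had 4 of 8 genes measured, none called, a median of 0.60 and summed levels of 3.17 and 2.72, with Hbb-bs at 1.14 and Hbb-bt at -0.71, and Alas2 at 0 in both. Their part in the ratios of Ccr9 and Il7r was not tested.

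Myeloid and megakaryocyte genes were examined as other lineage programmes that LSK cells carry. Granulocyte and monocyte progenitor products had a median of 0.62 over 10 measured genes, of which 3 were called higher and 0 lower. Mpo, the myeloperoxidase gene, had 322 and 204 normalised CPM (0.66), Elane was at 2.04, Ly6c2 at 1.75 and Lyz2 at -0.29. Megakaryocyte and platelet genes had a median of 0.61 over 12 measured genes, of which 4 were called higher and 0 lower. Selp (1.37), Gp1ba (1.32), Gp9 (1.26) and Vwf (0.79) were those called, with Pf4 at -0.24. Rora, Cd4, S100a9, Ly6c2, Gp1ba, Gp9 and Vwf were chosen after their values were seen. Myeloid transcription factors had 1 of 9 higher, the immediate early gene Egr1 (2.498), with Gfi1 at -0.13 and a median of 0.30. Beside these the median of the 10 lymphoid priming genes was -0.02. The wider lymphoid transcription factors had a median of 0.36 and the NK and innate lymphoid genes 0.86. By summed counts these lists were at 0.15, 0.32 and 0.36 in that order. On the same measure the granulocyte and monocyte progenitor products were at 0.34 and the megakaryocyte and platelet genes at 0.42. Myeloid transcription factors were at 1.85, where Egr1 held 43996 of 51997 counts in miR-146a-/-. The NK and innate lymphoid median takes in genes with few counts, such as Gzmb (13 and 9) and Prf1 (11 and 9). With 1 library a genotype, the differences between lists were not tested.

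**Figure D4:**
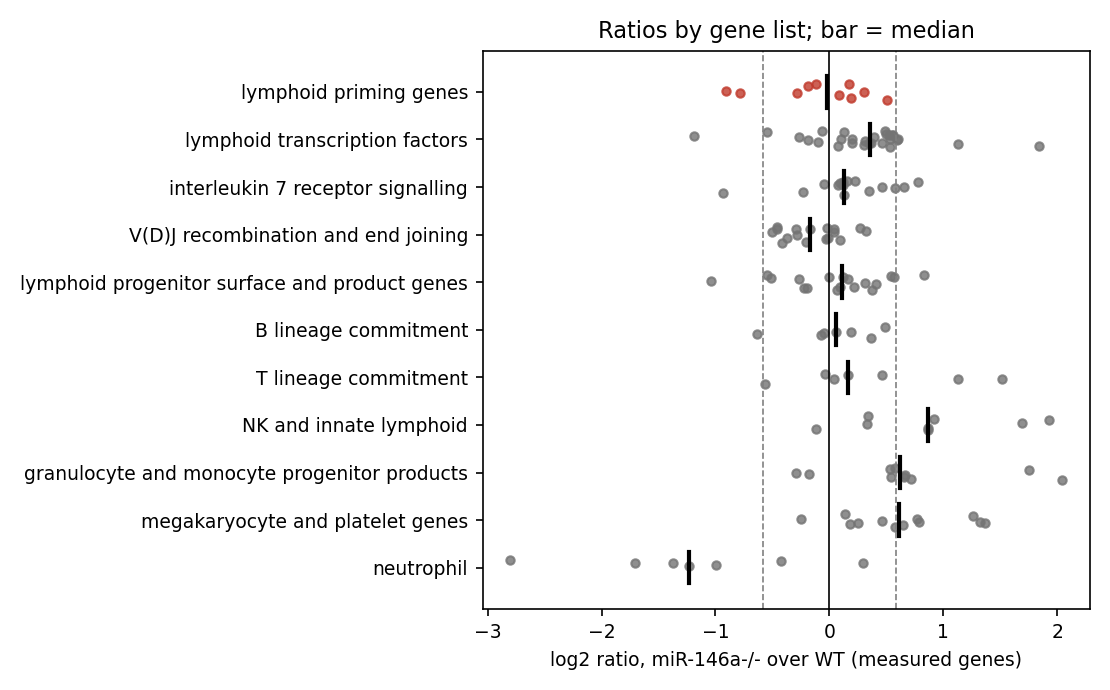
Log2 ratio of miR-146a-/- over WT for each measured gene of 11 lists (points, spread vertically for clarity), with the median of each list as a bar and dashed lines at 1.5-fold. The lymphoid priming genes (top, median -0.02) straddle 0, the myeloid and megakaryocyte lists have medians of 0.62 and 0.61, and the neutrophil list has -1.24.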

How the data were processed

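The authors deposited whole-number read counts per Ensembl gene for 1 miR-146a-/- and 1 WT library, with no normalisation. Per the file headers, alignments carried splice junctions and flagged duplicates. STAR 2.5.3a, Salmon 0.9.0 and mm10 are named, without a role, per the submitters' processing notes. Which program counted, and with what use of strand, is not given in the sources used here. Per the labels' protocols, total RNA was depleted of ribosomal RNA. Of 39017 identifiers, 37693 had a name in GENCODE M21 (mm10), which gave positions and exons.

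Effective library sizes were 16724100 for miR-146a-/- and 46617600 for WT, by the TMM method of edgeR 4.0.16 under R 4.3.3, from the 13880 genes with at least 20 summed counts. With no replicates edgeR served for scaling only. Log2 ratios are miR-146a-/- over WT with a prior count of 0.5. Their 95% intervals are exact Clopper-Pearson intervals of the share of counts, computed in Python with scipy 1.17.1, and cover only counting error. With 1 library per genotype they hold no spread between replicates. PCR reads with no molecular identifier do not each stand for a molecule, so the counting error itself may be understated. The calculation was tested on simulated data.

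The members and lists were chosen with earlier results of these data known. All 10 members are named; in each other list the highest and lowest ratio and the most abundant measured gene are named, and any other gene was chosen after its values were seen. Some genes that this rule takes are not reported in the text. Members differ in counts from 116 to 26110. Alternatives were scaling by total counts, by upper quartile, by DESeq2 1.42.0 size factors or over protein-coding genes alone, other filters, a prior count of 5 and a 2-fold threshold; a length adjustment was chosen after seeing the data.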

Additional observations from a re-analysis of the deposited data

How the results depend on the processing

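DESeq2 size factors, upper-quartile scaling, TMM over protein-coding genes, at least 200 counts, a prior count of 5 and a 2-fold threshold left 0 of the lymphoid priming genes called. By total counts the median of all measured genes moved to -0.83 and that of the 10 genes to -0.83, with 6 called lower and 0 higher, beside 7077 lower and 140 higher of all measured genes. Scaling shifts every gene alike by construction. With no filter their median was -0.084 and 1 gene, Ccr9, was called lower, with 322 lower of all genes. With at least 200 counts their median was 0.062 over 8 genes (491 higher and 130 lower of all), since Rag1 and Il7r were not entered. The 2-fold threshold is stricter by construction, with 294 higher and 42 lower of all. The length adjustment, chosen after seeing the data, covered the 12319 measured protein-coding genes, of which 567 were then higher and 99 lower, against 538 and 178 without it. Of the 10 lymphoid priming genes it called 1, Ccr9, lower, and put 4 ratios above 0 and 6 below, since Satb1 changed sign. Each filter on low counts changed which genes were entered and recomputed the TMM scaling. The log2 ratio of effective library sizes was -1.41 with no filter and -1.52 with at least 200 counts, beside -1.48 in the main setting. The length adjustment subtracts an offset set by exon length, by construction, from a running window of genes rather than from decile medians. The change of sign of Satb1 rests on that choice. The source of the length trend itself was not tested. The main counts were 742 higher and 212 lower. No paired analysis was possible because each genotype had 1 library. With 24 to 116 counts per library, Rag1 and Il7r are limited by depth.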
